A study of Mus musculus with 12 samples.

Results

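The cornified envelope is the layer of cross-linked protein that replaces the plasma membrane of the outermost cells of a stratified epithelium. The genes described here were chosen by symbol: every Sprr and Lce gene, with 17 further envelope genes named one by one. These are Loricrin, Ivl, Flg, Flg2, Hrnr, Rptn, Tchh, Tchhl1, Crnn, Tgm1, Tgm3, Tgm5, Cdsn, Evpl, Ppl, Casp14 and Cnfn. The rule found 54 genes (16 Sprr, 21 Lce and the 17 named) among 32498 rows with a gene name. The rule used no measured value. RNA-seq libraries were made from tongues of C57BL/6 mice, 6 from the vehicle group and 6 from the GA group, where GA is gallic acid, a plant phenol. The mice were bought at 5 weeks of age, and their age at sacrifice and their sex are not given in the sources used here. All mice of both groups drank the carcinogen 4-nitroquinoline 1-oxide (4NQO) at 100 µg/mL for 16 weeks and plain water afterwards. GA at 100 mg/kg or vehicle (methyl cellulose and Tween-20, with GA brought in from a DMSO stock) was gavaged 5 times per week from week 4 of 4NQO until sacrifice. The labels call the material tumor and tumor-associated tongue, with no split into lesion and surrounding tissue. Each library was taken as 1 mouse, although the labels number replicates without naming animals. If libraries shared an animal, the p-values below would measure a technical spread.

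During terminal differentiation, involucrin (Ivl), envoplakin (Evpl) and periplakin (Ppl) form the early scaffold beneath the membrane. Transglutaminases (Tgm1, Tgm3, Tgm5) then cross-link loricrin, the small proline-rich proteins (Sprr) and the late cornified envelope proteins (Lce) onto it. The fused S100 proteins, among them filaggrin (Flg), hornerin (Hrnr), repetin (Rptn), trichohyalin (Tchh) and cornulin (Crnn), bind keratin or are built into the envelope. Corneodesmosin (Cdsn) holds cornified cells together, caspase 14 (Casp14) takes part in filaggrin breakdown, and cornifelin (Cnfn) is an envelope component. Most of these genes lie side by side in the epidermal differentiation complex. The dorsal tongue of the mouse is a keratinized epithelium with filiform papillae, and trichohyalin and repetin are known from those papillae.

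Of the 54 genes, 46 lay on chromosome 3 within 1.39 Mb of GRCm38 (mm10), from Loricrin (start 92080271) to Tchhl1 (end 93471980). The other 8 were Cnfn, Casp14, Cdsn, Evpl, Ppl and the 3 transglutaminase genes. The upstream sequences of 6 genes of the complex are printed because their levels moved apart between libraries, as described below. They come from RefSeq promoter records on GRCm38.p6, which matched 49 of the 54 genes, and hold the 250 bases before the RefSeq start, 5′ to 3′. GENCODE M21 begins the genes Sprr2a1, Sprr1a and Crnn earlier, and their printed sequences stop there, at 214, 236 and 248 bases. The windows were Sprr2d chr3:92338890-92339139 (plus strand), Sprr2a1 chr3:92215585-92215798 (plus strand), Sprr1a chr3:92485896-92486131 (minus strand), Loricrin chr3:92083143-92083392 (minus strand), Crnn chr3:93144539-93144786 (plus strand) and Lce1a1 chr3:92648308-92648557 (minus strand). Capitals mark TGANTCA and TATAAA, the TATA box, searched on both strands. TGANTCA covers the letters bound by AP-1 factors, which have C or G in the middle, but also allows A or T there.
Sprr2d: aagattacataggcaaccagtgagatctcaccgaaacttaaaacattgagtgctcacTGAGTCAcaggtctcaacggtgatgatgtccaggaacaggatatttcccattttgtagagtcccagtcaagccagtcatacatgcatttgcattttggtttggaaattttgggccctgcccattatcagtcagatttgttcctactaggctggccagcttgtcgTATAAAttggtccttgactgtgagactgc
Sprr2a1: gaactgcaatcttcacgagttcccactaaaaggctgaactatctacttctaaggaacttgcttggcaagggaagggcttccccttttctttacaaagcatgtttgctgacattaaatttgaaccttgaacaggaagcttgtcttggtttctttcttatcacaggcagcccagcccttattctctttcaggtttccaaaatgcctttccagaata
Sprr1a: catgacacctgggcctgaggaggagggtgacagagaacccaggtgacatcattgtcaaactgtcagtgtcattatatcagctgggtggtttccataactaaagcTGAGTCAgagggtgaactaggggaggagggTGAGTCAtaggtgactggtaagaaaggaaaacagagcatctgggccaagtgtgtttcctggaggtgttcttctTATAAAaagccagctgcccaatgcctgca
Loricrin: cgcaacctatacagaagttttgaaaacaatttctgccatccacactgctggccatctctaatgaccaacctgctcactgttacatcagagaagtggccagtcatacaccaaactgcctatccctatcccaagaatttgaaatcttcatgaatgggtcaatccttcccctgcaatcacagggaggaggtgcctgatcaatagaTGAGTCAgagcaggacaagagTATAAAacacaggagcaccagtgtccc
Crnn: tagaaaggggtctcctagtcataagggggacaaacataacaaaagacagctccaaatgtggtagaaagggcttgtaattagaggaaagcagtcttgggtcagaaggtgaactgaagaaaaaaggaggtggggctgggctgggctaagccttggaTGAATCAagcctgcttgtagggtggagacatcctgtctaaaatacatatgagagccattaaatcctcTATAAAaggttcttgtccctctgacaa
Lce1a1: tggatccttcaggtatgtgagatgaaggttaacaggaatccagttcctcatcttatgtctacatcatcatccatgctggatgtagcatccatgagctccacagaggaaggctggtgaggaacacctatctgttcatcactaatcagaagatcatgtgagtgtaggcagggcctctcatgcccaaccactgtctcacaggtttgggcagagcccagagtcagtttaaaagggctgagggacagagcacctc

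TGANTCA was present in 16 of the 49 windows (32.7%), against 6.87% of the 27025 promoters in the table. It stood in 7 of 7 Sprr2 genes outside the Sprr2a group, between 198 and 193 bases before the start (Sprr2k held a further copy at 182), with TATAAA at 29 bases before the start in each of the 7. Sprr1a held it at 146 and 116 bases before the start, Loricrin at 48 and Crnn at 96. The copy in Crnn reads TGAATCA, with A in the middle, so it lacks the AP-1 letters. The shares are those of the wider pattern. The Sprr2a genes (Sprr2a1, Sprr2a2, Sprr2a3) held it in 0 of 3 windows, the Lce1 genes in 0 of 13 and the Lce3 genes in 0 of 6. The Sprr2a genes are annotated with 2883 to 3003 exon bases, against 609 to 784 for the other Sprr2 genes. Windows before their annotated starts may therefore not be matching regions. TATAAA was found in 42.9% of member windows and 13% of all. AACCNGTT, the letters of a grainyhead-like site, was found in 1 member window (Rptn), or 2.04%, against 1.71% of all. A match is a description of letters. The windows of Sprr2a1 and Sprr2a2 were identical at 250 of 250 bases. Laid end to end without gaps, Sprr2d and Sprr2a1 shared 24.4% of positions. Sprr2a1 and Sprr2a3 shared 26.4%, as did Lce1a1 and Lce1a2, while pairs among Sprr2b, Sprr2d and Sprr2i shared 53.2% to 69.6%. A comparison without gaps misses likeness between windows that are offset, so the low values do not set the groups apart.

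The values are FPKM, reads corrected for gene length and library total, divided by a scaling factor for each library that lay between 0.913 and 1.08. Totals read back from the FPKM steps were 18040361 to 21769851 reads in vehicle libraries and 21237490 to 25191802 in GA libraries. Krt13, a keratin of oral suprabasal cells, was at 5579 to 22200 FPKM in the 12 libraries and Krt14, a basal keratin, at 1220 to 8021 FPKM, so stratified epithelium was present in each. The libraries differed in other ways. Transcripts of 4 genes of the Y chromosome (such as Uty) were found in vehicle libraries 1, 2, 3 and 4 and in GA library 1, and the other 7 had none. Lipf, a lipase of the lingual glands, was at 8079 to 26220 FPKM in vehicle libraries 3 and 5 and GA library 2 and at most 0.498 in the other 9, and 10 of 13 gland markers were listed at 0 in at least 1 library. The mean log2 level of 14 skeletal muscle markers was lowest in vehicle library 1 (4.83) and highest in vehicle library 3 (8.17). In bulk tissue, fewer cornifying cells and less RNA per cell cannot be told apart.

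Comparing GA with vehicle asked whether gallic acid altered these genes in 4NQO-exposed tongue. After the filter at a mean of 0.1 FPKM, 53 of 54 members were tested (Flg2, with 0 to 17 reads per library, was not), and 51 had a mean of at least 1 FPKM. The 2 tested below that, Sprr4 and Lce6a, had 0 to 6 and 0 to 9 reads. With limma over 16847 genes, 0 members met both limits (adjusted p under 0.1 and a log2 fold change of 0.58 or more in size), as did 0 of all genes (0%). At an unadjusted p below 0.05, limma gave 0 members, against 364 genes or 2.16% of those tested. Groups did not overlap for 0 members and for 11 of all genes (0.0653%). The mean log2 level was lower with GA for 46 of 53 members (86.8%), where 49.1% of all genes were lower, and the median log2 fold change was −0.293 for the members and 0.004 for all genes. The members are correlated with each other, so this count is far from 53 separate observations.

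That direction rested on vehicle library 1. Without it, 19 of 53 members were lower and the median was 0.061. Without GA library 6, the lowest library for 22 members, 39 were lower and the median was −0.101. Without both, 19 were lower and the median was 0.199. This pair was chosen after seeing the data, here and for the single genes below. Leaving it out must raise the log2 fold change of every member that it holds at the vehicle maximum and the GA minimum. Among the 7 libraries that lacked Y-linked transcripts, 2 of vehicle and 5 of GA, 20 were lower and the median was 0.062, and those with them included a single GA library, which gives no within-sex spread. With a sex term (Y-linked transcripts found or not) in all 12 libraries, 37 were lower and the median was −0.099. Of the Lce genes, 19 of 21 were lower in all libraries, 1 without vehicle library 1 and 2 without both. Of the 6 tested fused S100 genes, 6, 3 and 0 were lower in the same settings. Of the Sprr genes, 14 of 16 were lower in all libraries, 11 without vehicle library 1 and 13 without both libraries.

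**Figure D1:**
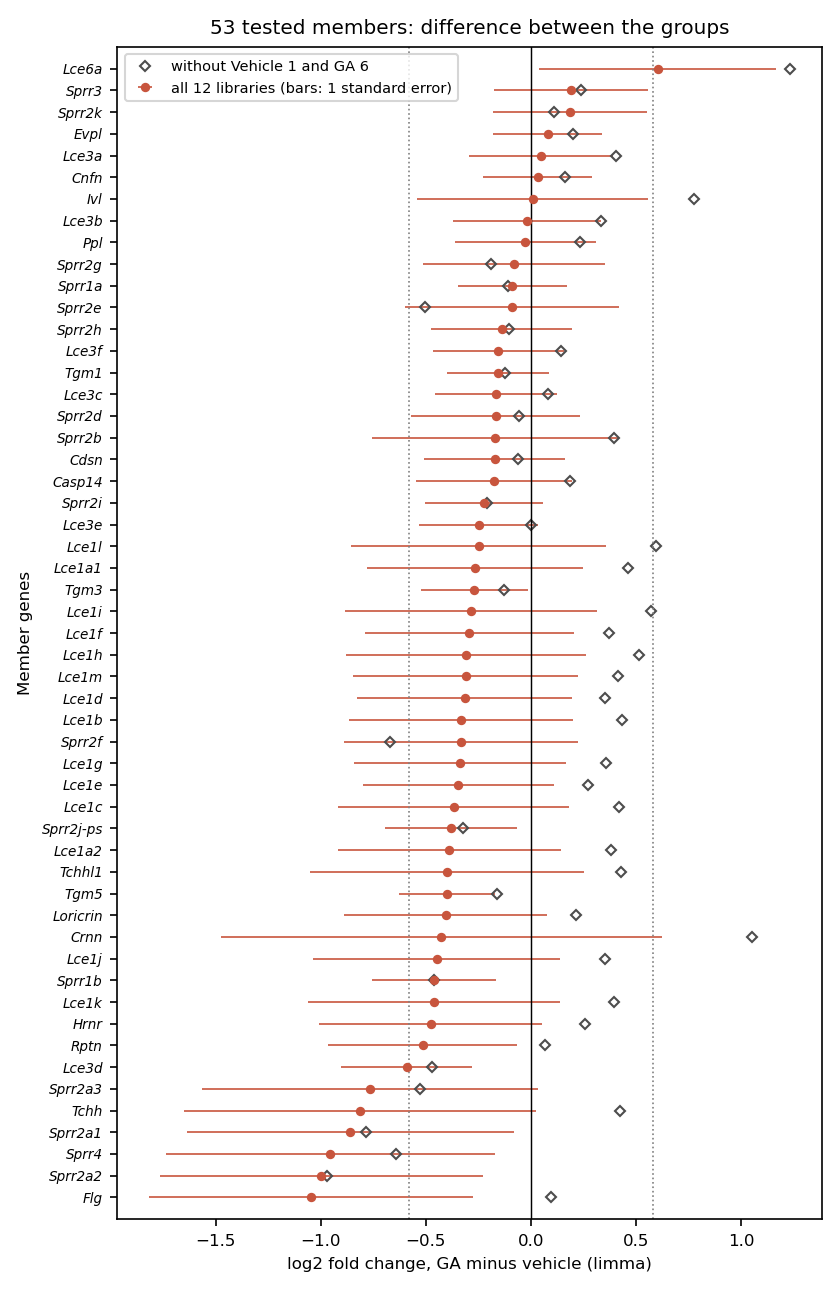
Log2 fold change of GA against vehicle (x axis, limma on log2(scaled FPKM + 0.1)) for the 53 tested members (y axis), with filled points and bars of 1 standard error for all 12 libraries and open diamonds for the 10 libraries left without vehicle library 1 and GA library 6. Filled points lie left of 0 for 46 members and diamonds for 19, and dotted lines mark a change of 0.58. The 2 libraries left out for the diamonds were chosen after seeing the data.

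Loricrin, the main protein of the envelope, was the most abundant member per length. It ranged from 2036 to 9073 FPKM in vehicle libraries (median 2793) and from 790 to 4428 in GA libraries (median 3119). The highest value belonged to vehicle library 1 and the lowest to GA library 6, and the other 10 libraries lay between 1715 and 4428. The log2 fold change was −0.41 (standard error 0.48, limma unadjusted p = 0.415, exact permutation p = 0.459), although the GA median was the higher. Without both of those libraries it was 0.22. Cnfn was at 658 to 1742 FPKM with vehicle (median 926) and 633 to 1320 with GA (median 1012). It varied by 2.75-fold over the 12 libraries, against 11.5-fold for Loricrin.

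Of the fused S100 genes, the 6 tested had negative log2 fold changes, and each was highest in vehicle library 1 and lowest in GA library 6. Crnn, which is abundant in oesophagus and oral mucosa, was at 16.0 to 256 FPKM with vehicle (median 26.7) and 1.04 to 102 with GA (median 63.2). Its 247-fold range was the widest of the 51 members with a mean of at least 1 FPKM, and its log2 fold change of −0.43 had a standard error of 1.05. Leaving out GA library 6 alone turned it to 0.51. Tchh, the trichohyalin of hair roots and papillae, was at 112 to 1870 FPKM with vehicle (median 214) and 14.6 to 512 with GA (median 218). Vehicle library 1 stood above the rest and GA library 6 below, and the medians were close. Its log2 fold change was −0.81 (standard error 0.84), and 0.42 without both libraries.

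Flg, the precursor of filaggrin, was at 8.69 to 127 FPKM with vehicle (median 15.1) and 1.07 to 27.1 with GA (median 13.8). It had the most negative log2 fold change of the members, −1.05 (standard error 0.77, limma unadjusted p = 0.199, exact permutation p = 0.336), and 0.10 without both libraries. Rptn, the most abundant gene of the group, was at 389 to 2685 FPKM with vehicle (median 510) and 249 to 706 with GA (median 497), with a log2 fold change of −0.52. Hrnr was at 19.8 to 204 FPKM with vehicle (median 27.6) and 11.4 to 47.5 with GA (median 31.0), and Tchhl1 at 1.88 to 43.4 and 1.76 to 13.8. Flg2 had at most 0.0440 FPKM in any library. Filaggrin-2 transcripts were thus at the limit of detection while Flg was measured in each library.

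**Figure D2:**
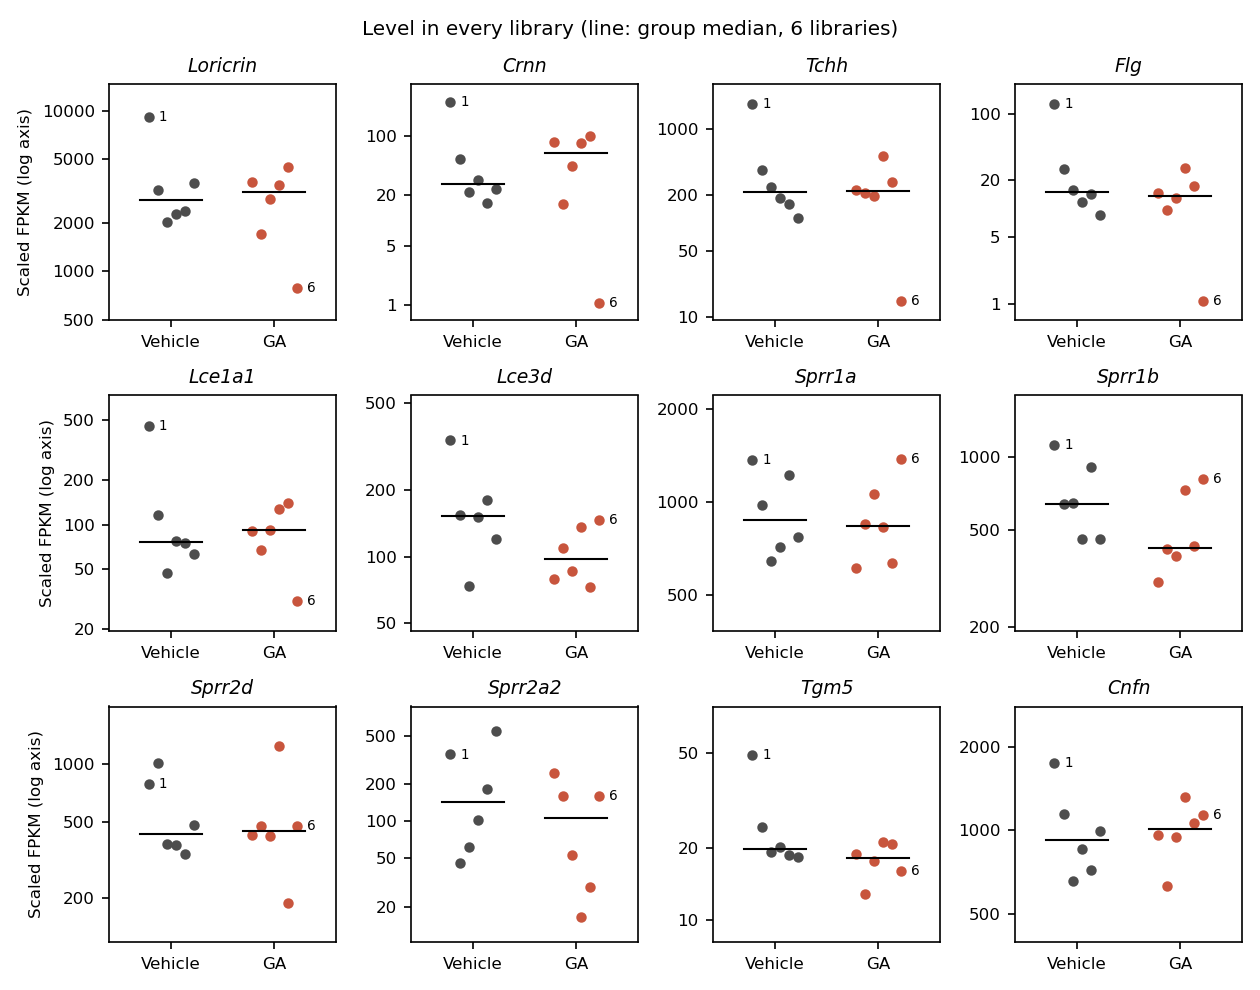
Scaled FPKM (log axis) of 12 members in each of the 6 vehicle libraries (grey) and 6 GA libraries (red), with a line at the group median, where vehicle library 1 and GA library 6 carry their numbers. For Loricrin, Crnn, Tchh, Flg and Lce1a1 these libraries hold the highest and lowest value, whereas for Sprr1a GA library 6 holds the highest, 1381 FPKM.

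The 14 Lce1 genes behaved as 1 block. Mean levels ran from 4.80 FPKM (Lce1m) to 116 (Lce1a1), each gene was highest in vehicle library 1 and lowest in GA library 6, and the ranges over libraries were 10.9-fold to 27.4-fold. Lce1a1 was at 47.7 to 457 FPKM with vehicle (median 76.4) and 30.8 to 139 with GA (median 91.6). Its log2 fold change of −0.27 (standard error 0.52) became 0.18 without vehicle library 1 and 0.46 without both. Log2 fold changes of the block lay between −0.46 (Lce1k) and −0.25 (Lce1l). Its genes share sequence, and up to 27.1% of the 50-base windows of an Lce1 transcript (Lce1i) also occurred in another gene, so uniquely mapped reads can miss part of them.

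The 6 Lce3 genes were more abundant than the Lce1 genes, with means from 138 to 354 FPKM, and varied less, by 4.54-fold to 5.84-fold. They too were highest in vehicle library 1, but 5 of the 6 were lowest in vehicle library 3 and none in GA library 6. Lce3d had the smallest p of all members. It was at 73.8 to 337 FPKM with vehicle (median 154) and 73.1 to 147 with GA (median 97.8), and all 6 GA values were under the vehicle median. The groups nevertheless overlapped, since vehicle library 3 was at 73.8. The log2 fold change was −0.59 (standard error 0.31, limma unadjusted p = 0.0809, adjusted p = 1.0, exact permutation p = 0.108), and over the alternatives its unadjusted limma p ran from 0.0124 to 0.182. Its log2 fold change was −0.363 without vehicle library 1 and −0.815 without the 3 libraries with high Lipf. Lce3e also had 6 of 6 GA values under the vehicle median (log2 fold change −0.25), whereas Lce3a and Lce3b were at 0.05 and −0.02. Lce3d and Lce3e share 49.3% and 43.7% of their windows with other genes. The ratio of Lce3c to Lce1a1 within a library was 1.87 in vehicle library 1, 10.6 in GA library 6 and 2.51 to 4.78 in the other 10.

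Among the Sprr genes, which encode small cross-bridging proteins, Sprr1a and Sprr1b were abundant, with a narrow range for Sprr1a and a wider one, 3.63-fold, for Sprr1b. Sprr1a was at 643 to 1371 FPKM with vehicle (median 873) and 610 to 1381 with GA (median 838), a 2.26-fold range that was the narrowest of the 51 members. Sprr1b was at 458 to 1113 FPKM with vehicle (median 641) and 307 to 813 with GA (median 423). Its log2 fold change was −0.46 (standard error 0.29, limma unadjusted p = 0.141, exact permutation p = 0.162), and 4 of 6 GA values were under the vehicle median. In the 7 libraries that lacked Y-linked transcripts it was −0.279. GA library 6 was the highest of all libraries for Sprr1a and the highest of the GA libraries for Sprr1b, while it was the lowest for Loricrin. The ratio of Sprr1a to Loricrin within a library was 1.75 there and 0.143 to 0.516 in the other 11. Sprr3, a marker of oral and oesophageal epithelium, was at 221 to 792 FPKM with vehicle (median 352) and 183 to 568 with GA (median 523), with a log2 fold change of 0.19 (standard error 0.37).

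The 9 Sprr2 genes outside the Sprr2a group, whose windows hold TGANTCA in each of the 7 with a record, followed neither Loricrin nor Sprr1a closely. Sprr2d was at 340 to 1009 FPKM with vehicle (median 432) and 189 to 1240 with GA (median 449), with a log2 fold change of −0.17 (standard error 0.40). The highest value was in GA library 4 and the lowest in GA library 5. It was at 0.09 when GA library 5 was left out. GA library 6 held the highest values of Sprr2e, Sprr2f and Sprr2g (106, 159 and 94.9 FPKM). Log2 fold changes of the 9 ran from −0.38 (Sprr2j-ps) to 0.19 (Sprr2k).

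Sprr2a1, Sprr2a2 and Sprr2a3 had a pattern of their own. Sprr2a2 was at 45.7 to 542 FPKM with vehicle (median 143) and 16.3 to 247 with GA (median 106). It was highest in vehicle library 6 and vehicle library 1, and lowest in GA library 4, where Sprr2d was highest. The ratio of Sprr2a2 to Sprr2d was 1.13 in vehicle library 6 and 0.0131 in GA library 4, an 86.1-fold range within libraries that does not depend on scaling. The log2 fold change of Sprr2a2 was −0.998 (standard error 0.77, limma unadjusted p = 0.218, exact permutation p = 0.273), with 3 of 6 GA values under the vehicle median, and Sprr2a1 and Sprr2a3 were at −0.86 and −0.76. The log2 fold change of Sprr2a2 was −0.564 without GA library 4, −0.622 without vehicle library 6 and −2.451 in the 7 libraries that lacked Y-linked transcripts. In those 7 libraries, Sprr2a1, Sprr2a2 and Sprr2a3 were the 3 members with an unadjusted limma p below 0.05 (0.03, 0.0361 and 0.0158), at adjusted p = 0.999 each. Of all genes, 380 of 16798 were below 0.05 there. Only vehicle libraries 5 and 6 stand for vehicle among the 7, and library 6 held the highest Sprr2a1 and Sprr2a2 of all libraries. The 3 genes move together, so they are not 3 separate observations. Sprr2a1 and Sprr2a2 share 96.3% and 96.5% of their windows, mostly with each other, and Sprr2a3 61.1%. Reads from the shared stretches drop out when only unique reads are kept.

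Of the early scaffold, Evpl was at 49.8 to 140 FPKM with vehicle (median 78.5) and 46.2 to 97.4 with GA (median 91.5), with a log2 fold change of 0.08, and Ppl was at −0.03. Ivl was low, at 1.19 to 19.3 FPKM with vehicle (median 2.91) and 1.27 to 5.62 with GA (median 3.84). With a log2 fold change of 0.01 in all libraries, it was at 0.78 without vehicle library 1 and GA library 6. Those 2 libraries, chosen after seeing the data, held its highest vehicle and lowest GA value, so leaving them out can only raise the fold change. Vehicle library 1 held 19.3 FPKM of Ivl, and the other 11 libraries at most 5.62.

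Tgm3, the most abundant of the cross-linking enzymes, was at 563 to 1523 FPKM with vehicle (median 765) and 445 to 899 with GA (median 679), with a log2 fold change of −0.27 (standard error 0.26). Without vehicle library 1 this was −0.082 and without GA library 2 −0.155. Tgm5 had the second smallest p of the members. It was at 18.3 to 48.7 FPKM with vehicle (median 19.7) and 12.9 to 21.2 with GA (median 18.2), and vehicle library 1 was at 48.7 while the next vehicle library was at 24.4. The log2 fold change was −0.40 (standard error 0.23, limma unadjusted p = 0.104, exact permutation p = 0.108), and −0.19 without that library. Tgm1, whose exons share 5.8% of their bases with an antisense gene, was at −0.16. Cdsn was at 172 to 794 FPKM with vehicle (median 289) and 165 to 477 with GA (median 277), and Casp14 at 7.85 to 19.1 (median 10.2) and 4.79 to 21.2 (median 12.2), with log2 fold changes of −0.17 each.

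When the libraries were compared with each other, vehicle library 1 held the highest value of 37 of the 51 members and the lowest of 0. GA library 6 held the lowest value of 22 and the highest of 4 (Sprr1a, Sprr2e, Sprr2f and Sprr2g). Members took 6.57% of the reads on named genes in vehicle library 1 and 1.46% to 2.82% in the other 11. The mean log2 level of 14 suprabasal keratins moved the same way, at 9.6 in vehicle library 1, 7.33 in GA library 6 and 7.97 to 8.92 in the rest. Krt10, Krt24, Krt36, Krt76 and Krt84 were highest and lowest in those 2 libraries. Krt17 was instead highest in GA library 6 (6635 FPKM), Krt6a, Krt6b and Krt16 were lowest in GA library 1, and Krt4, Krt13 and Krt78 in GA library 2. The mean log2 level of basal markers such as Krt5 and Krt14 did not move that way. It was 6.05 in vehicle library 1 and 7.20 in GA library 6, where 5.66 to 7.31 was the range of all. Muscle markers were at 4.83 in vehicle library 1, the lowest of all, and 5.70 in GA library 6, the lowest of the GA libraries. With a muscle term in the fit the median of the members was −0.199, and with a basal term −0.471. Neutrophil markers, of which 4 of 12 were listed at 0 in some library, had mean log2 levels of 0.0 to 4.47 with vehicle and −0.18 to 2.87 with GA. The highest was in vehicle library 5. Their sum (1109 to 2618 FPKM with vehicle and 235 to 1836 with GA) was mostly S100a8 and S100a9, which averaged 560 and 912 FPKM. Both genes were highest in vehicle library 6. The other markers were highest in vehicle library 5, except Il1r2 in vehicle library 1. The sum thus follows S100a8 and S100a9 and not the list as a whole. The median of the members was −0.471 with a neutrophil term and −0.398 with a gland term. The part of these cell types in the member levels was not tested further.

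**Figure D3:**
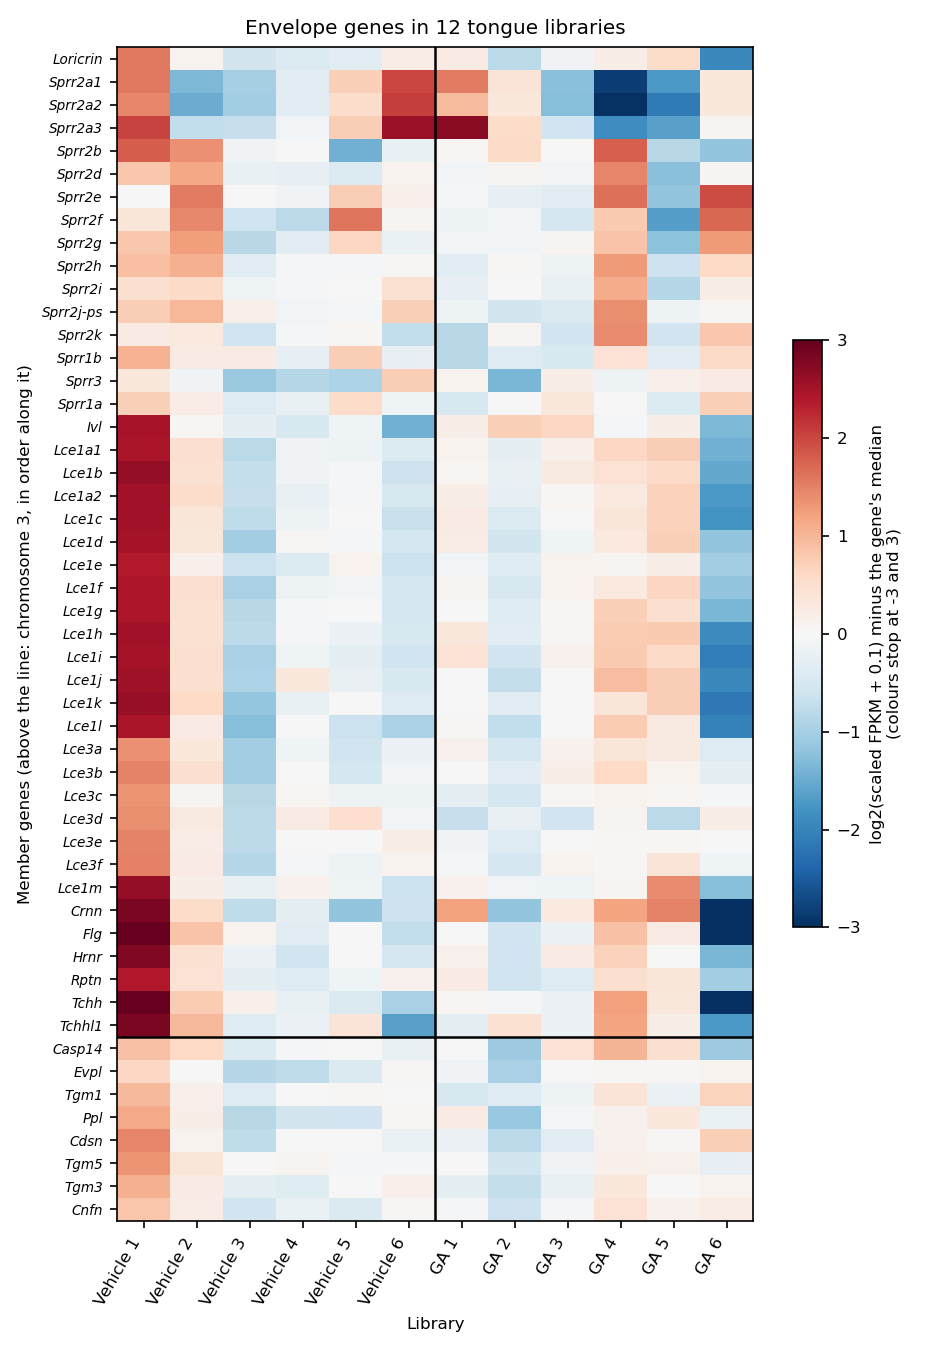
Log2(scaled FPKM + 0.1) minus the gene's median for the 51 members with a mean of at least 1 FPKM (rows, chromosome 3 genes in chromosomal order above the line) in 12 libraries (columns). Vehicle library 1 is red over nearly every row, GA library 6 is blue over Loricrin, the Lce1 genes and the fused S100 genes but red over part of the Sprr genes, and the 3 Sprr2a rows form a band of their own.

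Correlations over the 12 libraries were taken within and between sets fixed by gene name. The points share 2 extreme libraries, so each value is given also for the 10 libraries without vehicle library 1 and GA library 6. The median Pearson r of log2 levels over gene pairs was 0.97 within Lce1 (0.93 in 10 libraries), 0.91 within Lce3 (0.82), 0.97 within Sprr2a (0.97) and 0.71 within the other Sprr2 genes (0.76). For correlations and set means, Crnn was kept apart from the fused S100 genes, which left 5 of them with a mean of at least 1 FPKM. Between Lce1 and these 5 it was 0.91, falling to 0.64 in 10 libraries. Between Lce1 and Crnn it was 0.88 (0.78). Between Evpl or Ppl and Cnfn it was 0.92 (0.89), and between Evpl or Ppl and Sprr3 0.85 (0.91). Between Sprr2a and Lce1 it was 0.02 in 12 libraries and −0.51 in 10, and between Sprr2a and the other Sprr2 genes −0.12 and −0.23.

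**Figure D4:**
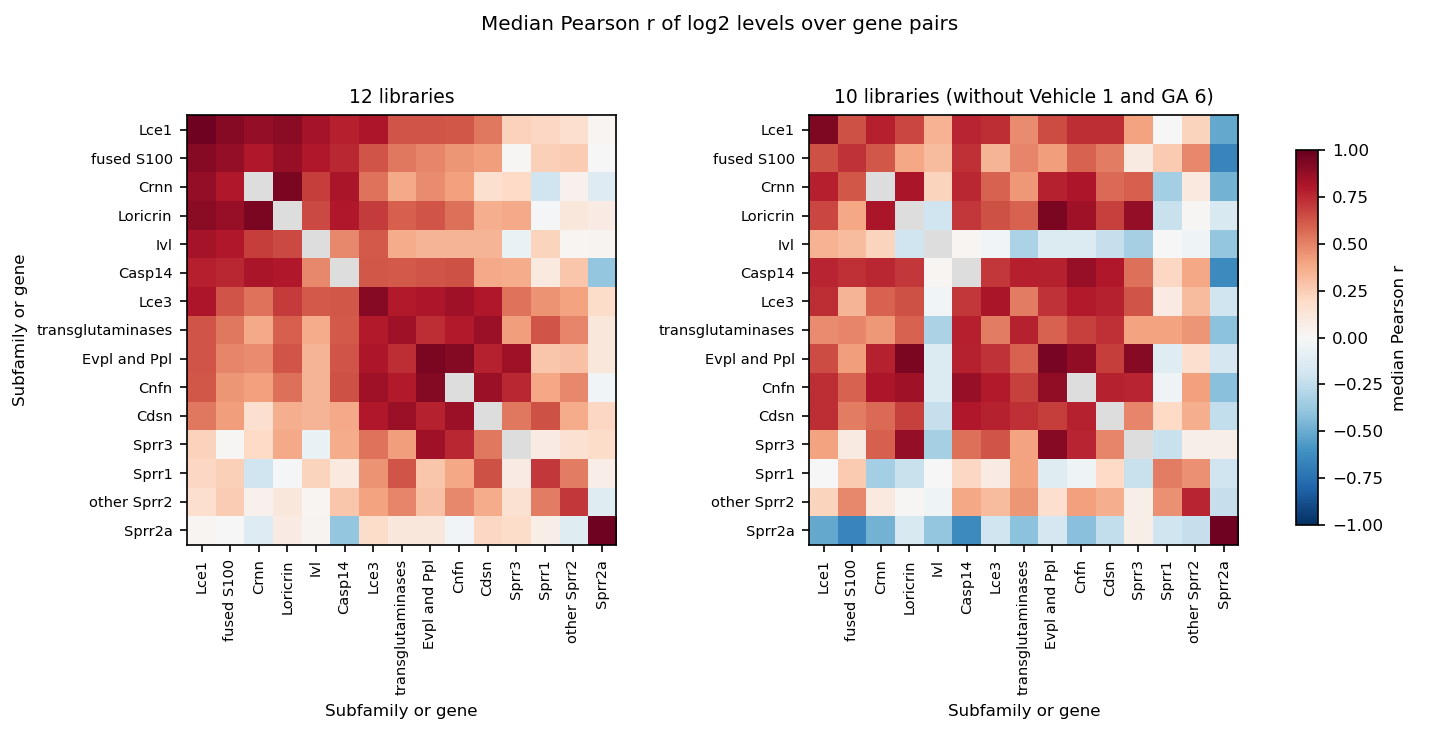
Median Pearson r of log2 levels over gene pairs within and between 15 subfamilies or single genes (both axes), in 12 libraries (left) and in 10 (right); grey marks a single gene against itself. Lce1, the fused S100 genes, Crnn and Loricrin form a red block on the left. Against the other sets, the Sprr2a row runs from −0.39 (Casp14) to 0.21 (Cdsn) on the left and is mostly negative on the right.

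Loricrin was compared with the most abundant member of each of 14 other sets, with 100000 permutations of the libraries and adjustment over the 14. It followed Crnn (r = 0.94, permutation p = 2e-05, adjusted 0.00028, rho = 0.90) and Rptn (r = 0.91, permutation p = 0.00013, adjusted 0.00091, rho = 0.86). Without the 2 libraries farthest from the median of Loricrin, which were vehicle library 1 and GA library 6, r was 0.82 and 0.86. Lce1a1 (r = 0.91, permutation p = 0.0003, adjusted 0.0014, rho = 0.77) and Casp14 (r = 0.80, permutation p = 0.00107, adjusted 0.00374, rho = 0.72) moved with Loricrin too. Their r was 0.70 and 0.71 without those libraries. Ppl gave r = 0.74 (permutation p = 0.00921, adjusted 0.0258, rho = 0.90), and 0.97 without those libraries. Within groups, r of Loricrin with Ppl was 0.97 in vehicle libraries and 0.55 in GA libraries. Sprr1a gave r = −0.11 over 12 libraries (permutation p = 0.743, adjusted 0.8), −0.24 without those libraries, 0.67 within vehicle and −0.84 within GA. Sprr2a2 gave r = 0.04 (permutation p = 0.907), and −0.21 without those libraries. The remaining relations had adjusted permutation p from 0.0696 to 0.647. Without those libraries r rose from 0.38 to 0.88 for Sprr3 and from 0.55 to 0.85 for Cnfn. It rose from 0.36 to 0.68 for Cdsn and from 0.60 to 0.70 for Tgm3. It fell from 0.66 to −0.20 for Ivl, 0.64 to 0.60 for Lce3c and 0.19 to 0.02 for Sprr2d. Which genes followed Loricrin most closely thus depended on those 2 libraries. The values within groups include vehicle library 1 and GA library 6.

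**Figure D5:**
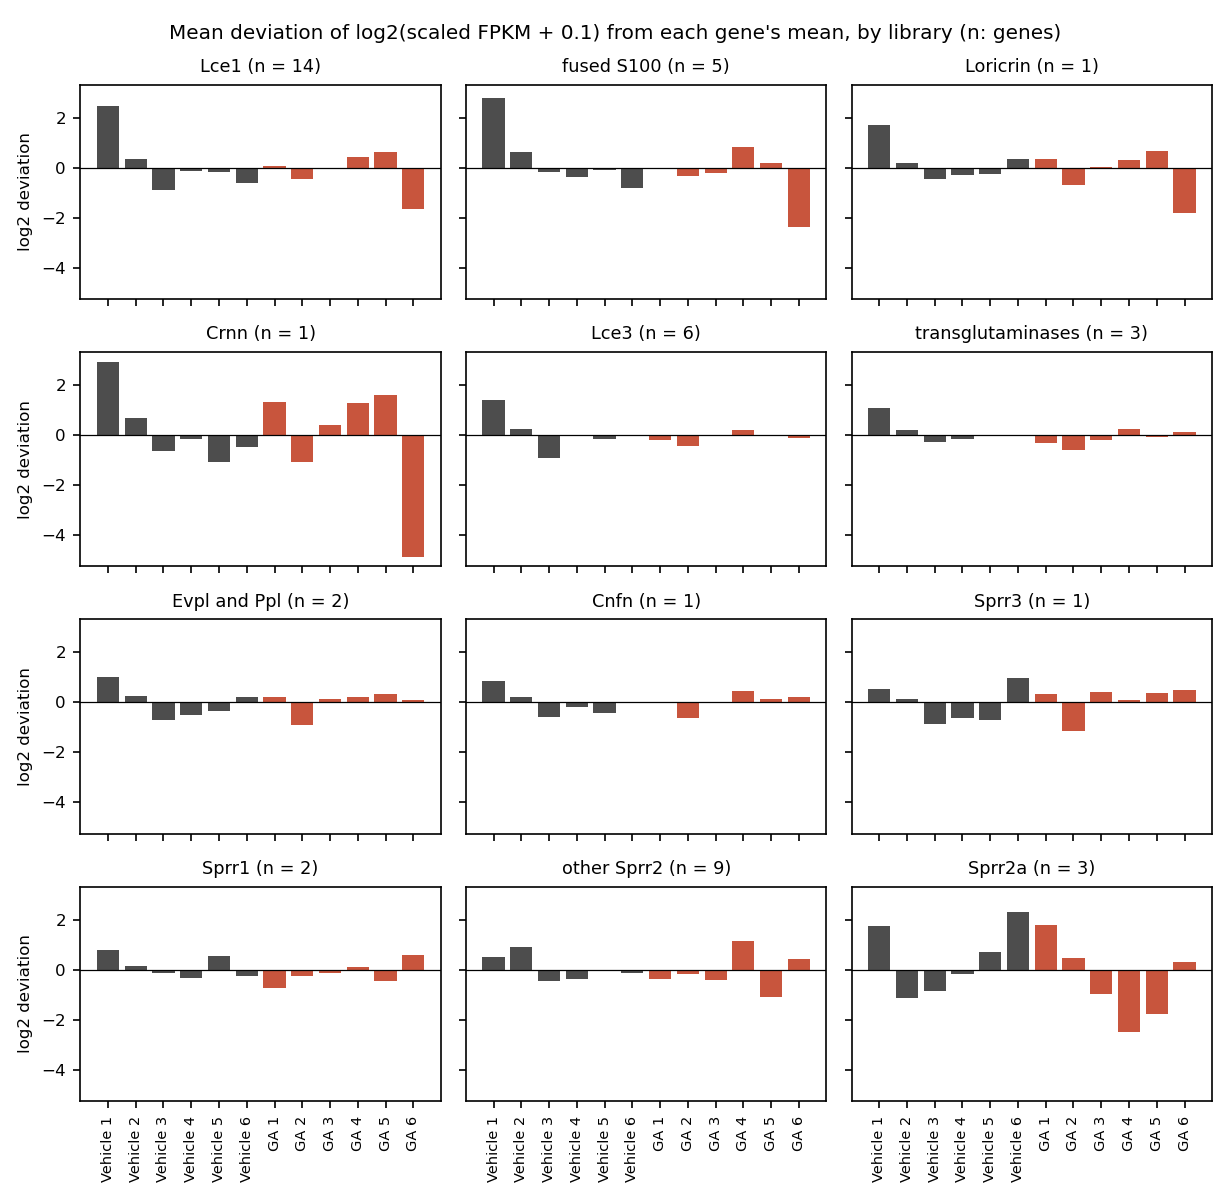
Mean deviation of log2(scaled FPKM + 0.1) from each gene's mean (y axis) in each library (x axis, vehicle grey and GA red) for 12 sets of members, with the number of genes in brackets. Crnn falls furthest in GA library 6, while Sprr1 and Sprr3 lie above 0 there, and the Sprr2a bars are highest in vehicle library 6 and lowest in GA library 4.

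Lists of other genes of the pathway, chosen from general knowledge, gave 0 calls with limma (0 of 77 genes, over 5 lists). Of all genes tested, 49.1% were lower with GA and 2.16% had an unadjusted limma p below 0.05. Of 15 other tested envelope genes, 11 were lower with GA and 1 had an unadjusted p below 0.05, Pglyrp3, a peptidoglycan recognition protein encoded in the same complex (vehicle 18.6 to 33.5 FPKM, GA 11.6 to 25.8, log2 fold change −0.43, limma unadjusted p = 0.0447, adjusted p = 1.0). Pglyrp4 was at −0.45. Of 13 suprabasal keratins, 11 were lower, and the 2 with the smallest p were the stress keratins Krt6b (vehicle 3145 to 8274 FPKM, GA 1230 to 5905, log2 fold change −0.81) and Krt16 (−0.66). Of 18 regulators, 13 were lower. Gata3, a transcription factor of epithelial differentiation, was at −0.47 (limma unadjusted p = 0.132). Its mean of 0.126 FPKM was just over the filter (vehicle 0.0757 to 0.216 FPKM, GA 0.0123 to 0.145). Of 18 proteases and inhibitors, 10 were lower (Klk8 −0.34, Blmh −0.31), and of 13 lipid barrier genes, 11 (Smpd3 −0.56, Alox12e −0.78). Each of the 5 lists had its highest mean log2 level in vehicle library 1.

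Outside the members, the genes whose log2 level was most like the mean standardized level of the 51 members, out of 12111 genes that averaged 1 FPKM or more, were Tmem40 (Pearson r = 0.982 over 12 libraries), Klf3 (0.976), Yod1 (0.975), Esyt3 (0.975) and Dedd2 (0.974). In the 10 libraries without vehicle library 1 and GA library 6, r was 0.93 to 0.95 for the 5 genes.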

How the data were processed

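Bulk RNA-seq of 12 mouse tongue libraries (6 vehicle, 6 GA) was analysed from the tables that the authors deposited. The authors checked quality with FastQC, used HISAT2 for alignment to mm10 and featureCounts for unique reads per gene, and the deposited values are FPKM per gene and library. Whether counting used strand is not given in the sources used here. Rows without a gene name (22965 of 55463, holding 16.2% to 25.5% of the FPKM sum) were left out. Low FPKM values were whole multiples of 1 read for 97.7% to 98.3% of values worth up to 8 reads (tolerance 0.02), with GENCODE M21 exon lengths reduced in proportion to library size, which gave the totals and the reads. Neither the depth nor this length term was stated by the authors.

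Scaling between libraries used a trimmed mean of log ratios without weights (30% of ratios and 5% of levels trimmed from each end). The study ran a count test with a false discovery rate under 0.1 and a log2 fold change of 0.58 or more in size. As the files hold FPKM, limma 3.58.1 (R 4.3.3, with trend) was run on log2(scaled FPKM + 0.1) with the same limits, over the 16847 genes averaging 0.1 FPKM or more, and p-values were adjusted over all of them by Benjamini-Hochberg. This scale understates the change of low genes. Single genes were also tested by a two-sided exact permutation (924 ways to choose 6 of 12 libraries, so no p under 0.00216 is possible). The fit was tested on simulated data. Values were given for members with a mean of at least 1 FPKM and for the 5 with the smallest p, for 2 genes of each list (the result of a listed gene is not reported here) and for the 5 genes most like the members. The members, lists and alternatives were chosen with earlier results of these data known. Same-numbered libraries did not deviate together, so replicate numbers were not used to pair samples. Figures were drawn with matplotlib 3.10.9.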

Additional observations from a re-analysis of the deposited data

Results flagged for a closer look

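Within a group of 6 libraries, a value was marked when the gap between the extreme library and its neighbour exceeded Dixon's 95% limit for its share of the group's range (a limit that chance passes in about 1 of 20 groups). Of 42 groups examined, over 13 genes and 8 subfamily means, 10 were marked, and they are not independent because the genes move together. Vehicle library 1 was the isolated highest library for Tgm5 (0.706 of the range), Rptn (0.704), Hrnr (0.693), Loricrin (0.635), the transglutaminase mean (0.657) and the Lce1 mean (0.627). GA library 6 was the isolated lowest library for Tchh (0.725), Flg (0.676) and the fused S100 mean without Crnn (0.639). GA library 2, a library with high Lipf, was the isolated lowest of the GA libraries for the mean of Evpl and Ppl (0.826).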

How the results depend on the processing

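0 genes were called with limma under the alternatives, except 1 gene without vehicle library 4 (range over single libraries left out 0 to 1) and 328 genes with unadjusted p below 0.1 and the fold limit, among them 1 member. Members with an unadjusted limma p below 0.05 are given with the count over all genes of the same refit. They numbered 2 with a basal term (503 of 16847 genes) and 1 each with a muscle (655), neutrophil (357) or gland term (527). Without the libraries with high Lipf there was 1 (471 of 16658), and in libraries without Y-linked reads 3 (380 of 16798). Without both vehicle library 1 and GA library 6, chosen after seeing the data, there were 2 (934 of 16870). Over single libraries left out there were 0 to 1, against 246 to 840 of all genes. The median of the members stayed negative except without vehicle library 1 (0.061), without both (0.199) and in libraries without Y-linked reads (0.062), and its range over single libraries left out was −0.471 to 0.061. Log2 fold changes of 13 genes kept their sign in 369 of 390 refits. They turned positive without both libraries for Flg (0.096), Loricrin (0.217), Tchh (0.423), Rptn (0.069), Crnn (1.051), Hrnr (0.258) and Lce1a1 (0.46), in libraries without Y-linked reads for Tchh (0.193), Crnn (0.248), Hrnr (0.053), Lce1a1 (0.227) and Sprr2d (0.21), and with the term for Y-linked reads for Crnn (0.388) and Lce1a1 (0.006). Leaving out vehicle library 1 gave 0.119 for Crnn, 0.013 for Hrnr and 0.177 for Lce1a1, and leaving out GA library 6 gave 0.506 for Crnn and 0.019 for Lce1a1. Sprr2d was at 0.025 without vehicle library 2 and 0.088 without GA library 5. Over single libraries left out, Crnn ran from −0.79 to 0.506, Hrnr from −0.657 to 0.013, Lce1a1 from −0.475 to 0.177 and Sprr2d from −0.455 to 0.088. Why these settings change the sign was not tested. With the replicate number as a block, 0 genes were called and the median was −0.293; deviations of same-numbered libraries correlated at −0.372 to 0.08, and 0 of 6 matched best with their own number, so the numbers do not pair the samples. Depth limits Sprr4, Lce6a and Flg2, with at most 6, 9 and 17 reads in a library.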
